A study of Mus musculus with 4 samples.

Results

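Mcts2, H13, Nnat, Blcap, Nespas and Gnas are 6 of the 37310 genes annotated in mm9 by GENCODE vM1, and they form 3 imprinted loci on chromosome 2. They were chosen on their CpG methylation in the same 4 libraries described here, so that the levels within their windows, and the calls and intervals given with them, are a description. A CpG site was a member when it lay within 1 kb of the 5′ end of a gene and was covered by at least 10 reads in a library. This gave 92 CpG sites in any library and 44 sites in all 4 libraries, of 591877 to 816807 such sites per library in the whole series. The genes were grouped as loci that keep methylation, but intermediate methylation was found only at the windows of Mcts2, Nnat and Nespas, and the levels there were lower in 2i + Vitamin C than in serum in both genotypes on shared sites. The windows of H13 and Gnas were nearly unmethylated in all 4 libraries, and the window of Blcap held no CpG site with 10 reads. The H13 level in the library with the fewest reads rests on 4 sites with 12 reads each.

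The study measured CpG methylation by reduced representation bisulfite sequencing (RRBS-seq), in which MspI cuts genomic DNA at CCGG and bisulfite turns unmethylated cytosines into a base that is read as T. The mouse embryonic stem (ES) cells were wild type (WT) or lacked the KRAB zinc finger protein (KRAB-ZFP) gene cluster of chromosome 4 (Chr4-cl KO), which had been removed with CRISPR/Cas9. The KO cells originated from mice of mixed strain background with a cre/ERT insertion at the ROSA26 locus, and KO and WT cells were expanded from picked clones. Each genotype was grown in serum, with 20% FCS and LIF, or for 1 week in 2i medium with Vitamin C, which lowers DNA methylation across the genome. Each of the 4 conditions had 1 library, called WT-serum, KO-serum, WT-2i and KO-2i from here on, so that no difference between them has a replicate check, and it is not given in the sources used here which clones were sequenced.

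Imprinted genes are expressed from the maternal or the paternal allele only, and their control regions carry DNA methylation on a single allele that was set in the germ line. After fertilization these marks are protected from demethylation by KAP1, which is brought to methylated DNA by the KRAB-ZFP ZFP57 and, at some loci, ZFP445. Because a control region methylated on a single allele gives reads of both kinds, bisulfite reads of such a region show an intermediate level. The reads were not assigned to parental alleles here.

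Mcts2 and Nnat are small genes that lie inside an intron of a host gene, H13 and Blcap respectively. Mcts2 is a retrogene copy of Mcts1, a factor of translation, and is expressed from the paternal allele. Its host H13 encodes signal peptide peptidase. Nnat encodes neuronatin, a small membrane protein that is expressed from the paternal allele, and its host Blcap encodes a protein known from bladder cancer. Gnas encodes the alpha subunit of the stimulatory G protein and has several promoters with different imprints. Nespas is an antisense RNA transcribed from the paternal allele through the first of them.

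In the coordinates of mm9, Mcts2 (ENSMUSG00000042814.6) lies on the plus strand at chr2:152512884-152513676 and H13 (ENSMUSG00000019188.9) on the plus strand at chr2:152495197-152534406. Nnat (ENSMUSG00000067786.9) lies on the plus strand at chr2:157385814-157388258 and Blcap (ENSMUSG00000067787.4) on the minus strand at chr2:157382098-157397010. Nespas (ENSMUSG00000086537.1), annotated as a lincRNA, lies on the minus strand at chr2:174106738-174120937, and Gnas (ENSMUSG00000027523.12) on the plus strand at chr2:174109821-174172245.

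The stretch of mm9 that holds the CpG sites measured at Nespas, the most methylated of the windows, is printed here, 5′ to 3′ on the plus strand, with the CpG sites covered by at least 10 reads in all 4 libraries in capitals. The stretch, chr2:174120938-174121087, lies directly upstream of the 5′ end and holds 11 CpG sites, 5 of them in capitals.
Nespas: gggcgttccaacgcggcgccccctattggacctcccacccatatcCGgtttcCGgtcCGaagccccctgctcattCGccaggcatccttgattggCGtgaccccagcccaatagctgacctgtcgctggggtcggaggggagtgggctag

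The capitals in the Nespas stretch were methylated at 59.2% in WT-serum, 68.1% in KO-serum, 43.8% in WT-2i and 57.9% in KO-2i. In these pooled levels both 2i libraries were below both serum libraries. The 95% Wilson intervals of KO-2i (53.0 to 62.6) and WT-serum (55.3 to 63.0) overlapped, so that the order of these libraries is not resolved.

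**Figure D1:**
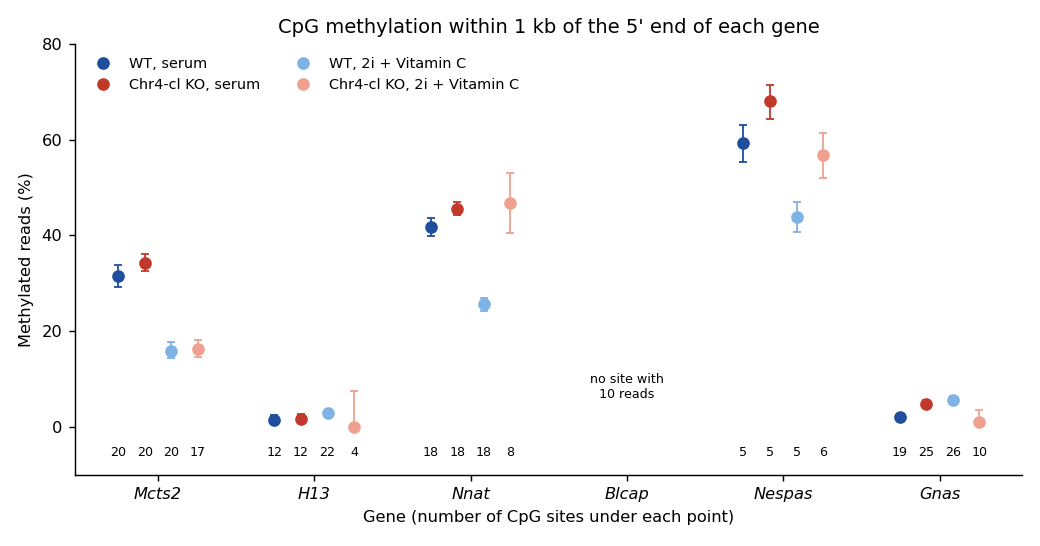
Percent methylated reads (y axis) over the CpG sites within 1 kb of the 5′ end of each gene (x axis) in each of the 4 libraries. Points are pooled levels, bars 95% Wilson intervals that cover counting error only, and numbers under the points count CpG sites. Mcts2, Nnat and Nespas lie between 15.9% and 68.1%, H13 and Gnas at or under 5.69%.

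The window of Mcts2 had an intermediate level in serum and about the same level in the 2 genotypes within each medium. Over 20 CpG sites, 513 of 1628 reads were methylated in WT-serum (31.5%, 95% Wilson interval 29.3 to 33.8) and 882 of 2572 in KO-serum (34.3%, 32.5 to 36.1). In WT-2i 286 of 1797 reads were methylated over the same 20 sites (15.9%, 14.3 to 17.7), and in KO-2i 288 of 1764 reads over 17 sites (16.3%, 14.7 to 18.1). These intervals count each read at each site, and 1 read can cover several sites, so that they may be too narrow. The serum libraries were higher than the 2i libraries, with no overlap of the intervals, and the genotypes overlapped within each medium.

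On the sites shared by the pair of libraries, KO minus WT at Mcts2 was 2.78 percentage points in serum (95% Newcombe interval -0.144 to 5.67), with 15 of 20 sites higher in KO cells. The same difference in 2i was 0.57 percentage points (-1.89 to 3.03), with 8 of 17 sites higher. From serum to 2i the level changed by -15.6 percentage points in WT cells (-18.4 to -12.8), with all 20 sites lower, and by -17.6 percentage points in KO cells (-20.2 to -15.0), with all 17 sites lower. The window thus held 50.5% of its serum level in WT cells and 48.1% in KO cells. The sites ran from 294 bp upstream of the 5′ end to the 5′ end itself, with a mean of 32.7% ± 6.27 (SD over 20 sites) in WT-serum and 15.9% ± 3.20 (SD over 17 sites) in KO-2i. The site 215 bp upstream was below the coverage minimum in KO-2i, with 5 reads, against 57 to 97 reads in the other libraries. Also below it in KO-2i were the site 169 bp upstream, with 0 reads, and the site at the 5′ end, with 2 reads. That last site was at 46.2% of 13 reads in WT-serum and 68.2% of 22 reads in KO-serum.

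H13, the host gene of Mcts2, had an unmethylated 5′ end. Over 12 sites, 12 of 842 reads were methylated in WT-serum (1.43%) and 19 of 1085 in KO-serum (1.75%). The level in WT-2i was 2.90% (77 of 2657 reads, 22 sites), while 0 of 48 reads over 4 sites were methylated in KO-2i, which allows a level of up to 6.25%. Within 2 kb of the 5′ end the level of H13 was 8.99% in WT-serum and 6.02% in KO-serum, so that the higher genotype depended on the width of the window. The intermediate methylation of the H13 locus was measured at the Mcts2 window inside the gene, and the second annotated start region of H13, 22.4 kb from its 5′ end, had no site with 10 reads.

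Nnat had an intermediate level in all 4 libraries, and its level in KO-2i rests on fewer sites. In serum, 1128 of 2702 reads over 18 sites were methylated in WT cells (41.7%, 39.9 to 43.6) and 2357 of 5168 in KO cells (45.6%, 44.3 to 47.0). Over the same 18 sites, 991 of 3870 reads were methylated in WT-2i (25.6%, 24.3 to 27.0). Of the 242 reads over 8 sites in KO-2i, 113 were methylated (46.7%, 40.5 to 53.0), and these sites lie between 20 and 170 bp downstream of the 5′ end. The lowest of the 4 libraries was WT-2i.

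The 8 sites nearest the 5′ end of Nnat were also more methylated than those further downstream in the other libraries, so that KO-2i can be compared only on shared sites. On these 8 sites the level was 51.1% in WT-serum, 55.5% in KO-serum, 30.6% in WT-2i and 46.7% in KO-2i. KO minus WT in 2i was 16.1 percentage points (9.54 to 22.8), with 7 of 8 sites higher in KO cells and the remaining site, at 20 bp, equal at 42.9%. Each of these sites had 28 to 32 reads in KO-2i. The deepest of them, at 168 bp, alone gave 9.82 percentage points with an interval from -6.48 to 27.8 that included 0. Over all shared sites within 2 kb of the 5′ end the difference was 3.14 percentage points.

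In serum, KO minus WT at Nnat was 3.86 percentage points over 18 sites (1.55 to 6.15), with all 18 sites higher in KO cells. Over all 588613 sites tested in serum, the mean of KO minus WT was 3.36 percentage points. The Nnat change from serum to 2i was -16.1 percentage points in WT cells over 18 sites (-18.4 to -13.8). In KO cells it was -8.80 percentage points over 8 sites (-15.5 to -2.03), and in both genotypes each site was lower in 2i. Just beyond the window, at 1 to 2 kb downstream of the 5′ end, 10 sites shared by all libraries gave 34.4% in WT-serum, 43.3% in KO-serum, 17.3% in WT-2i and 20.1% in KO-2i. There the genotypes were closer in 2i than at the 5′ end. At 1 to 2 kb upstream, 4 sites were at 84.1% in WT-serum, 88.6% in KO-serum, 42.1% in WT-2i and 37.5% in KO-2i. The Wilson intervals of WT-2i (37.7 to 46.7) and KO-2i (29.6 to 46.1, 128 reads) overlapped, so that no direction is given there.

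Blcap, the host of Nnat, could not be measured at its 5′ end, where 7 CpG sites had reads and none had more than 4. Its transcripts start in 3 regions. The second, 4.91 kb from the 5′ end, had 15 to 22 covered sites, and its level was 1.64% in WT-serum, 2.21% in KO-serum, 1.68% in WT-2i and 0.83% in KO-2i. The third, 11.3 kb from the 5′ end, lies close to the 5′ end of Nnat on the other strand and has the same covered sites as the Nnat window. The intermediate methylation inside Blcap was therefore that of Nnat, and the start within 5 kb of its 5′ end was nearly unmethylated in all 4 libraries.

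**Figure D2:**
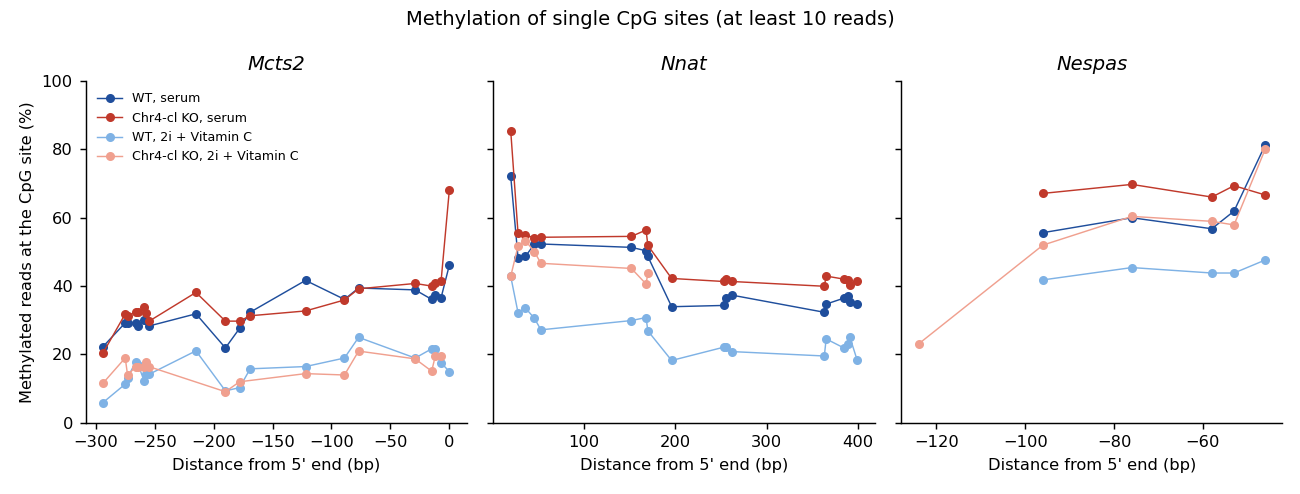
Percent methylated reads (y axis) at each CpG site with at least 10 reads against its distance in bp from the 5′ end of Mcts2, Nnat and Nespas (x axis, in the direction of transcription), coloured by library. At Nnat, KO-2i has values only for the 8 sites nearest the 5′ end, and at Nespas its 5 shared sites are all above those of WT-2i.

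Nespas was the most methylated of the 5 windows with covered sites in each of the 4 libraries. Over 5 sites, 369 of 623 reads were methylated in WT-serum (59.2%, 55.3 to 63.0) and 441 of 648 in KO-serum (68.1%, 64.4 to 71.5). In WT-2i 441 of 1006 reads were methylated over these sites (43.8%, 40.8 to 46.9), and in KO-2i 235 of 414 reads over 6 sites (56.8%, 52.0 to 61.5). The intervals of the genotypes did not overlap in either medium, but they count each read at each site. A read can cover several of these neighbouring sites, so that the intervals may be too narrow. At the site 53 bp upstream alone, the Newcombe interval of KO minus WT in serum ran from -3.02 to 17.7. At the site 76 bp upstream alone, that in 2i ran from 3.43 to 25.8. The separation in serum may therefore rest on reads counted at several sites.

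The 5 shared sites lie 46 to 96 bp upstream of the 5′ end of Nespas. The site at 76 bp was methylated in 60.0% of 155 reads in WT-serum, 69.8% of 162 reads in KO-serum, 45.4% of 251 reads in WT-2i and 60.4% of 101 reads in KO-2i. The site at 96 bp was at 55.6%, 67.1%, 41.8% and 52.0% in the same order, and at both sites WT-2i was the lowest library. The site at 46 bp lay just inside the coverage minimum and was at 81.2% of 16 reads in WT-serum, 66.7% of 18 reads in KO-serum, 47.6% of 21 reads in WT-2i and 8 of 10 reads in KO-2i. It was the only 1 of the 5 sites that was higher in KO-2i than in KO-serum. The sixth site, 124 bp upstream, had reads in KO-2i only, where 23.1% of 13 reads were methylated.

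On the 5 shared sites, KO minus WT at Nespas was 8.83 percentage points in serum (3.54 to 14.1), with 4 of 5 sites higher, and 14.0 percentage points in 2i (8.24 to 19.6), with 5 of 5 sites higher. At the site 76 bp upstream alone, the deepest in 2i, the difference in 2i was 15.0 percentage points (3.43 to 25.8). The difference in serum at the site 53 bp upstream alone was 7.44 percentage points, with an interval from -3.02 to 17.7 that included 0. That site was 1 of 3 with 155 reads in WT-serum. From serum to 2i the window changed by -15.4 percentage points in WT cells (-20.2 to -10.4) and by -10.2 percentage points in KO cells (-16.2 to -4.20), so that 74.0% and 85.0% of the serum level was held.

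The 5′ end of Gnas in the annotation is the start of the Nesp transcript, which encodes a neuroendocrine secretory protein and is expressed from the maternal allele, and it was nearly unmethylated. Over 19 sites 46 of 2277 reads were methylated in WT-serum (2.02%), and over 25 sites 106 of 2249 in KO-serum (4.71%). Over 26 sites 202 of 3552 reads were methylated in WT-2i (5.69%), and over 10 sites 2 of 200 in KO-2i. A pair of neighbouring sites, picked out after their values were seen, stood above the rest. The site 555 bp downstream of the 5′ end was methylated in 29.1% of 285 reads in WT-2i and 15.7% of 166 reads in KO-serum, against 2.03% of 197 reads in WT-serum and 0 of 15 reads in KO-2i. The site at 545 bp was at 13.4% of 290 reads in WT-2i and 18.0% of 167 reads in KO-serum, against 1.53% of 196 reads in WT-serum and 0 of 13 reads in KO-2i. Without the site at 555 bp, but with its neighbour, the window was at 3.64% in WT-2i and 3.84% in KO-serum.

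**Figure D3:**
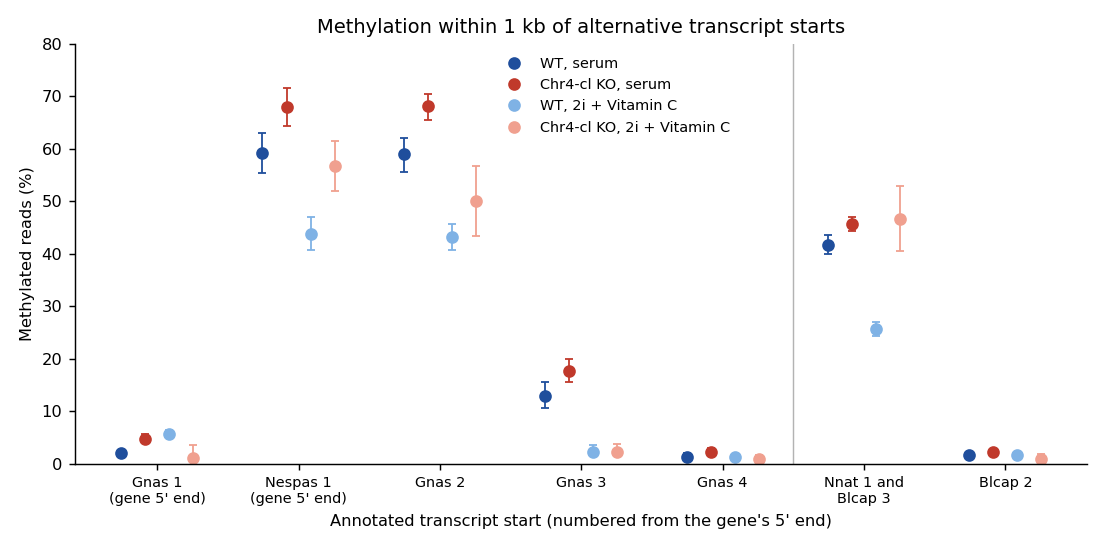
Percent methylated reads (y axis) within 1 kb of annotated transcript starts, numbered from the 5′ end of each gene (x axis), in each library with 95% Wilson intervals. To the left of the line are starts of Gnas and Nespas, with Nespas 1 and Gnas 2 between 43.2% and 68.1% and the other plotted starts at or under 17.7%. The fifth and sixth starts of Gnas, with 0 to 2 sites, and the second start of Nespas are not plotted. To the right are those of Nnat and Blcap.

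Gnas transcripts start in 6 regions, and their methylation differed from region to region. The second, 13.5 kb downstream of the 5′ end, is the start of the transcripts for XLas, a long form of the G protein subunit that is expressed from the paternal allele. It lies upstream of the 5′ end of Nespas on the other strand, and its levels were close to those of Nespas. Over 16 sites they were 58.9% in WT-serum (511 of 867 reads), 68.1% in KO-serum (928 of 1363 reads) and 43.2% in WT-2i (669 of 1549 reads), and over 11 sites 50.0% in KO-2i (106 of 212 reads, 43.3 to 56.7). On the 11 shared sites, KO minus WT in 2i was 7.18 percentage points (-0.0955 to 14.4), with 9 of 11 sites higher in KO cells.

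At 4 to 5 kb upstream of Nespas, mostly in the XLas exon, 28 sites shared by all libraries gave 47.6% in WT-serum, 47.2% in KO-serum, 26.6% in WT-2i and 33.7% in KO-2i. At 3 to 4 kb upstream, 7 sites gave 47.5%, 47.5%, 22.5% and 38.4% in the same order. At 3 to 4 kb the mean over sites gave the same order in 2i, with 24.3% in WT-2i and 38.3% in KO-2i. At 4 to 5 kb it gave the opposite order, with 27.1% in WT-2i and 23.1% in KO-2i, since the libraries weighted the sites differently, so that no direction is given for that bin. At 5 to 6 kb upstream the 10 sites were at 34.0% in WT-2i and 34.6% in KO-2i, so that the libraries were close in 2i there.

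The third region of Gnas, 43.2 kb from the 5′ end, includes the start of the exon 1A transcript, whose control region is known to be methylated on the maternal allele. It lies beyond 20 kb from each member 5′ end, so that its sites were not used to choose the genes. Its level was low, with 12.9% in WT-serum over 11 sites (88 of 683 reads), 17.7% in KO-serum over 17 sites (199 of 1127 reads), 2.24% in WT-2i (19 of 850 reads) and 2.29% in KO-2i (16 of 699 reads). On shared sites KO minus WT was 3.13 percentage points in serum (-0.304 to 6.42) and -0.144 percentage points in 2i (-1.63 to 1.42), so that no difference between the genotypes was detectable. The window held 17.3% of the serum level in WT cells and 12.3% in KO cells. The fourth region, 45.7 kb from the 5′ end and the main start of the G protein alpha subunit, was at or under 2.28% in all 4 libraries. The fifth had no covered site and the sixth had 1 or 2.

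Site by site, no member CpG site was called different between the genotypes. A site was called when its Fisher's exact test, adjusted over all sites by the Benjamini-Hochberg method, gave an adjusted p under 0.05 with a change of at least 20 percentage points. In serum 0 of 74 member sites were called between KO and WT cells, where 1.94% of all 588613 sites were called in either direction, and in 2i 0 of 44, where 0.450% of 458443 sites were called. From serum to 2i, 6 of 74 member sites were called lower in WT cells, 5 at Nnat and 1 at Mcts2, where 31.8% of all 628419 sites were called lower. In KO cells 7 of 44 were called lower, 6 at Mcts2 and 1 at Nnat, where 28.6% of 437979 sites were called lower. The genes were chosen on these contrasts, so nothing is read from the counts, and such a test compares libraries rather than conditions. The only member site called higher in 2i was the Gnas site at 555 bp, in WT cells.

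With all reads of a window pooled, 0 of 5 member windows with at least 5 shared sites were called between the genotypes in serum, where 1.04% of 13642 gene windows were called in either direction. The count in 2i was 0 of 4, where 0.151% of 12595 windows were called. No member window was called from serum to 2i in WT cells, where 6.77% of 13899 windows were called lower, or in KO cells, where 5.66% of 12405 were called lower. The differences of Mcts2, Nnat and Nespas were under 20 percentage points in each contrast on the sites tested, and so missed the minimum change of a call. On other sets of sites the Nnat change from serum to 2i in WT cells was past 20 percentage points, at -20.6 on the 8 sites with 10 reads in all 4 libraries and -20.8 within 2 kb.

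The sites outside the windows and up to 20 kb from a member 5′ end were followed in the same way. Within the windows the mean change over sites from serum to 2i was -16.8 percentage points in WT and -17.8 in KO cells at Mcts2, -17.1 and -11.6 at Nnat and -18.6 and -5.95 at Nespas. Around Mcts2 and H13, 15 of 25 shared sites were called lower from serum to 2i in WT cells and 2 of 10 in KO cells, with mean changes over sites of -28.7 and -23.2 percentage points. Around Nnat and Blcap, 22 of 50 sites were called lower in WT cells and 17 of 36 in KO cells, with mean changes of -24.4 and -26.7 percentage points. Around Nespas and Gnas, where the flank includes the XLas start, 27 of 82 sites were called lower in WT cells and 11 of 69 in KO cells, with mean changes of -13.8 and -15.7 percentage points. Over all sites 31.8% were called lower in WT cells and 28.6% in KO cells, and the shares in the flanks lay above this in WT cells and on both sides of it in KO cells. In serum 1 of 23 flank sites around Mcts2 and H13 and 2 of 50 around Nnat and Blcap were called higher in KO cells. Around Nespas and Gnas 0 of 82 were called, where 1.94% of all sites were called in either direction. In 2i the counts were 0 of 14, 0 of 38 and 2 of 75 in the same order, the 2 being higher in KO cells, where 0.450% of all sites were called. Nothing is read from these small counts. The pooled Nnat and Blcap flank was 8.27 percentage points higher in KO-2i than in WT-2i, but 14 of 38 sites were higher and 21 lower, with a mean over sites of -1.02 percentage points, since the libraries weighted the sites differently.

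**Figure D4:**
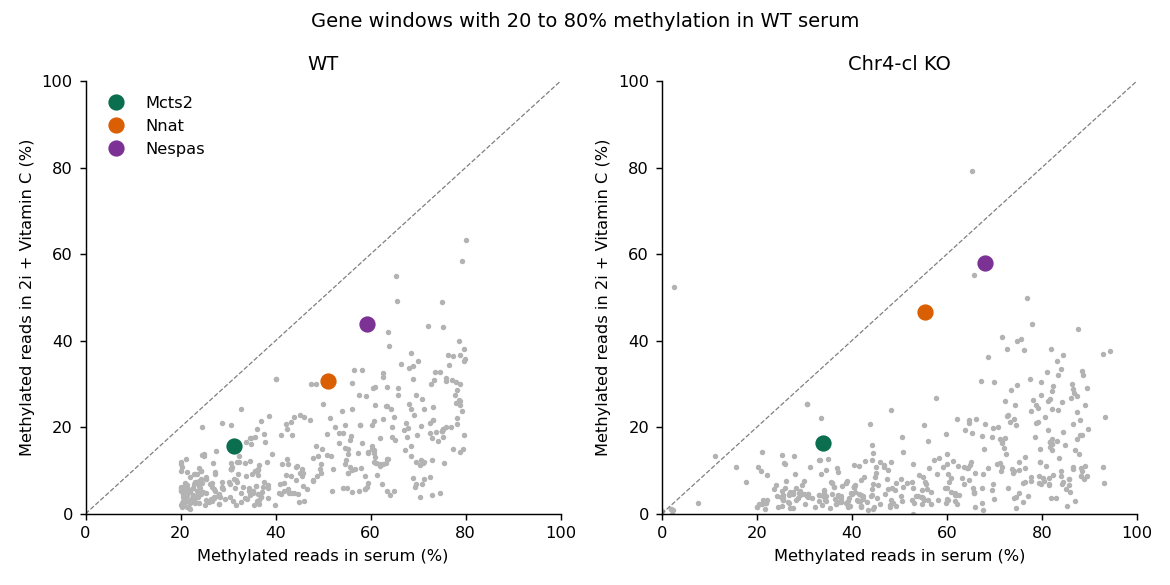
Methylation of gene windows in 2i + Vitamin C (y axis, percent methylated reads) against that in serum (x axis) for WT and Chr4-cl KO cells. Grey points are the other windows with 20 to 80% methylation in WT-serum, coloured points are Mcts2, Nnat and Nespas, and the dashed line marks equal levels. In KO cells Nnat and Nespas lie near the line, at 46.7% (8 sites) and 57.9% (5 sites) in 2i + Vitamin C.

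Most windows with an intermediate level in WT-serum held a smaller share of it in 2i than the windows of Mcts2, Nnat and Nespas. Among 12033 gene windows with at least 5 sites covered by 10 reads in all 4 libraries, 413 other windows had between 20 and 80% methylation in WT-serum. Their median share of the serum level held in 2i was 25.7% in WT cells (25th to 75th percentile 16.2 to 37.4) and 15.4% in KO cells (9.16 to 27.4, over the 411 windows with methylated reads in KO-serum). On the same kind of sites, WT cells held 50.3% at Mcts2, 59.8% at Nnat and 74.0% at Nespas, and KO cells 48.1%, 84.1% and 85.0%. In KO cells, 94.4% of the other windows held less than Mcts2 and 99.3% less than Nnat or Nespas. The Nnat share rests on 8 sites with about 30 reads each in KO-2i. At 1 to 2 kb downstream of the Nnat 5′ end, the level in KO cells was 43.3% in serum and 20.1% in 2i. Over the 413 windows, the median of KO minus WT in 2i was -1.82 percentage points, with 23.7% of them higher in KO cells. In serum this median was 10.3 percentage points, with 84.5% of the windows higher in KO cells. On sites with 10 reads in all 4 libraries, the serum differences of Mcts2, Nnat and Nespas, at 2.62, 4.36 and 8.83 percentage points, were smaller than that. These are a description, since the members were picked for such values.

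The gene windows whose 4 levels were closest to those of a member were found by the Euclidean distance over the 4 pooled percentages. For Mcts2 they were Wbscr25, Rnf207 and Lrrc4, at distances of 7.58, 8.75 and 9.01 percentage points. For Nnat the nearest were Abl1, Mir1966 and Tsks, at 17.5, 21.4 and 23.4, and for Nespas Gm14675, Gm9821 and Plekhb1, at 14.6, 17.8 and 21.5. Abl1 was at 68.6% in KO-serum and 36.2% in KO-2i. Gm14675 was at 65.6% in WT-serum, 49.2% in WT-2i, 77.0% in KO-serum and 49.8% in KO-2i. Abl1 and Gm9821 also lie on chromosome 2. For Gnas, whose window was nearly unmethylated, Cwh43, Kcng3 and Farsa lay within 1.34 percentage points.

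**Figure D5:**
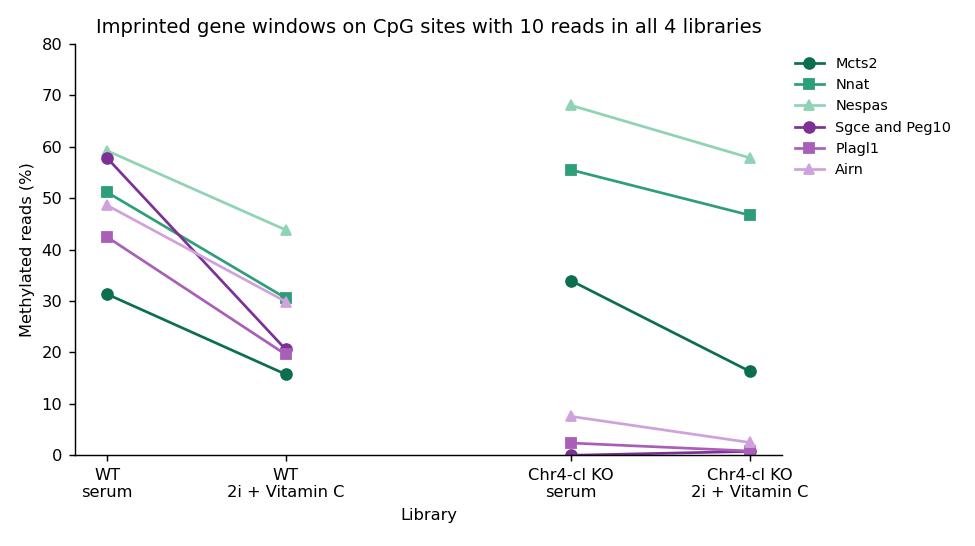
Percent methylated reads (y axis) of imprinted gene windows in each library (x axis), on the CpG sites with 10 reads in all 4 libraries; lines join the media within a genotype. In WT cells the chromosome 2 windows and the others overlap, and in KO cells Sgce and Peg10, Plagl1 and Airn lie between 0% and 7.56% while Mcts2, Nnat and Nespas lie between 16.3% and 68.1%.

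Other imprinted genes with an intermediate level in WT-serum were at or under 7.56% in KO cells. Of a list of 40 imprinted genes outside the 3 loci, 24 had at least 5 sites in all 4 libraries, and 19 of these were under 20% in every library. Sgce and Peg10, divergent genes on chromosome 6 that share their 10 sites, were at 57.8% in WT-serum and 20.6% in WT-2i. In KO-serum 0 of 444 reads were methylated, which allows a level of up to 0.676%, and in KO-2i 0.753% of 531 reads. Plagl1, a zinc finger factor encoded on chromosome 10, was at 42.4% in WT-serum, 19.6% in WT-2i, 2.38% in KO-serum and 0.833% in KO-2i over 5 sites. Airn, the antisense RNA of Igf2r on chromosome 17, was at 48.6%, 29.9%, 7.56% and 2.49% in the same order over 9 sites.

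In serum, 5 of 28 tested windows of this list were called lower in KO than in WT cells, namely Airn, Meg3, Peg10, Plagl1 and Sgce, where 0.117% of all windows were called lower. Meg3, which was not among the 24 windows, is named after its values were seen. Airn and Plagl1 were 2 of 25 windows called lower in 2i, where 0.111% of all windows were. The median of KO minus WT over the list was 0.763 percentage points in serum, beside 0.981 over all windows. Nap1l5 on chromosome 6 was the only 1 of the 24 windows at or above 20% in KO-2i. Over 14 sites it was at 93.9% in WT-serum, 94.3% in KO-serum, 77.0% in WT-2i and 70.6% in KO-2i. It thus was not intermediate in WT-serum, and its level in KO-2i was above that of each member window. The chromosome 2 windows and these genes were both chosen or named on their levels, so that their difference was not tested.

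The windows of the 6 genes differed in sequence. Over the 2001 bases around the 5′ end, Mcts2 held 82 CpG sites, H13 89, Nnat 96, Nespas 78 and Gnas 108, while Blcap held 13, beside a median of 32 over 37284 gene windows. The MspI site CCGG, which sets what RRBS-seq can read, occurred 11 times in the Mcts2 window, 2 times in the Blcap window and 5 to 7 times in the others, beside a median of 3. The hexamer TGCCGC, the sequence that ZFP57 is known to recognise when its CpG is methylated, was counted on both strands, and 34.2% of all gene windows held it at least once. Nnat held 6 copies, Nespas 5, Mcts2 3, Gnas 2, H13 1 and Blcap 0.

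The CpG inside a TGCCGC copy could be read at few of these. At Nnat the copy 28 bp downstream was at 48.3% in WT-serum, 55.5% in KO-serum, 32.2% of 239 reads in WT-2i and 51.7% of 29 reads in KO-2i. The copy 262 bp downstream was at 37.3% in WT-serum, 41.3% in KO-serum and 20.8% in WT-2i and had no reads in KO-2i. None of the 5 copies at Nespas was covered by 10 reads. The copy 566 bp downstream of the 5′ end of Gnas was at or under 7.19% in all 4 libraries.

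Depth differed between the libraries and touched these loci. The reads summed over CpG sites numbered 42684672 to 90649194 per library, with the fewest in KO-2i, where the median coverage of sites with 10 reads was 25 against 42 to 50 in the others. Over the span that holds 2610305D13Rik, Rex2, Gm13051 and Zfp600, genes of the deleted cluster, at chr4:145881315-147052416, the WT libraries had 42909 and 50417 reads and the KO libraries 542 and 519. Chromosome 2 took a larger share of the reads in KO than in WT cells, by a ratio of 1.13 in serum and 1.15 in 2i, the highest of the 19 autosomes, with the other autosomes between 0.955 and 1.05 and between 0.907 and 1.09. Its part in the methylation levels of the chromosome 2 loci was not tested.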

How the data were processed

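Genomic DNA had been digested with MspI. Per the labels and the study's methods, the authors trimmed reads with Trim Galore and used Bismark to map them to mm9 (versions are not given in the sources used here), then deposited 3 values for each CpG dyad, namely its read count, how many of those reads were methylated, and their ratio as a fraction. The deposited counts were used here and the fraction was not. All 7862365 listed positions were CG in the NCBIM37 sequence, the same build as mm9. The files of WT-serum and KO-2i each continued with a second table after the first, and positions listed more than once (332 and 830 rows) were left out.

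Sites needed 10 reads. A gene window was 1 kb on either side of the gene's 5′ end in GENCODE vM1, with methylated reads summed over sites, Wilson intervals for levels and Newcombe intervals for differences on shared sites (95%, counting error only, since PCR copies are not independent molecules and 1 read can cover several sites). Sites and windows (at least 5 shared sites) were tested by Fisher's exact test, two-sided, in each of 4 contrasts, with p-values adjusted over all sites or windows by the Benjamini-Hochberg method. Called means an adjusted p under 0.05 and at least 20 percentage points. The test was checked on simulated counts. With 1 library per condition, a test compares libraries only. Transcript starts within 1 kb of each other were taken as 1 region at the most 5′ of them. Named were the 6 genes, the listed imprinted genes with at least 5 sites in all 4 libraries and 20 to 80% in WT-serum, and the 3 windows closest to each member with 5 such sites. The genes, the list and the rules were chosen with earlier results of these data known. Analyses were run in Python 3.11.15 with scipy 1.17.1, numpy 2.4.6, numba 0.67.0, pandas 2.3.3 and matplotlib 3.10.9. The sequences at Mcts2 and Nnat are not reported here.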

Additional observations from a re-analysis of the deposited data

Results flagged for a closer look

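At the 5′ end of Gnas the differences had opposite signs in the compared groups, and the difference between them was not tested. The medians over all gene windows had the same signs. They were 0.981 percentage points for KO minus WT in serum and -0.869 in 2i, and 0.486 from serum to 2i in WT cells and -1.21 in KO cells. At Gnas the differences were larger. KO minus WT at Gnas was 2.88 percentage points in serum (95% Newcombe interval 1.80 to 4.01, 19 sites) and -6.35 percentage points in 2i (-7.63 to -3.61, 10 sites). From serum to 2i the window changed by 3.83 percentage points in WT cells (2.84 to 4.80, 19 sites) and by -4.90 percentage points in KO cells (-6.37 to -2.12, 10 sites). The sign of the WT change depended on the windows, since it was -2.63 with windows at every annotated transcript start, where that in KO cells was -8.70. Without the site 555 bp downstream of the 5′ end, the window was at 2.02% in WT-serum, 3.64% in WT-2i, 3.84% in KO-serum and 1.08% in KO-2i. KO minus WT in 2i was then -3.63 percentage points on shared sites, and it was -2.62 on the 5 sites with at least 20 reads. At the deepest site alone it was -3.10 percentage points, with an interval from -5.79 to 9.44 that included 0.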

How the results depend on the processing

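No paired analysis was possible because each condition has 1 library, and for the same reason no replicate could be left out. Of 158 recomputed window levels 126 stayed within the Wilson interval of the reported value, and of 180 recomputed differences 152 stayed within the Newcombe interval. The Nnat differences depended on which sites were read. KO minus WT in 2i fell to 3.14 percentage points within 2 kb and to 3.93 with windows at every transcript start, and the change from serum to 2i in KO cells became -28.3 and -22.4, and -15.8 at the deepest site alone. In WT cells that change was -20.6 on sites with 10 reads in all 4 libraries and -20.8 within 2 kb. With windows at every transcript start, which add the unmethylated start region 10 kb away, Nespas gave 4.80 for KO minus WT in 2i and -1.17 and -0.59 from serum to 2i in WT and KO cells. For Gnas the change from serum to 2i in WT cells became -2.63 with these windows and 1.72 without its site of the highest level. For H13, KO minus WT in serum became -2.97 and the change from serum to 2i in WT cells -3.30 within 2 kb, both of the opposite sign. The deepest site alone, an alternative chosen, like leaving out the Gnas site, after seeing the data, gave -6.54 for KO minus WT in 2i and -22.1 from serum to 2i in KO cells at Mcts2. Member sites called from serum to 2i numbered 30 lower and 3 higher in WT cells and 14 lower in KO cells with no minimum change, 17 lower in WT and 17 lower in KO cells within 2 kb, and 0 higher in WT cells within 500 bp. With no minimum change 2 member sites were called higher in KO-serum than in WT-serum. Over all sites, no minimum change gave 1284 lower and 25228 higher for KO minus WT in serum, 4048 lower in 2i, 13013 higher from serum to 2i in WT cells and 732 in KO cells. The reported settings gave 677 lower and 10736 higher, 1654 lower, 908 higher and 130 higher for these. Thinning to the smaller coverage gave 1058 lower and 198 higher for KO minus WT in 2i, in place of 1654 and 411. Sites called higher from serum to 2i in KO cells numbered 82 after thinning, 215 at a minimum of 5 reads and 61 at 20 reads, in place of 130. Except where given here, the cause was not tested. Depth limits KO-2i most, where Nnat had about 30 reads per site.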

Other observations

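The second start region of Nespas, 10 kb from its 5′ end, overlaps the window of the Gnas 5′ end and was also nearly unmethylated, at 2.91% in WT-serum, 4.55% in KO-serum, 4.67% in WT-2i and 1.80% in KO-2i over 30 to 46 sites. The sixth start region of Gnas, 60.3 kb from the 5′ end, had 1 or 2 sites and was at 86.5% of 37 reads in WT-serum, 15 of 15 reads in KO-serum, 16.1% of 87 reads in WT-2i and 11.1% of 18 reads in KO-2i.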
